A study of Mus musculus with 18 samples.

Results

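The genes described here are those of skeletal muscle fibres, set out by fibre type: contractile proteins of fast and slow fibres, the proteins that release and take up calcium, the enzymes and oxygen carriers that fuel contraction, the scaffold of the sarcomere, and muscle ubiquitin ligases. Of 55 genes listed by symbol, 54 had a probe set on the array, and each gene is read from its brightest probe set, by mean signal over the 18 arrays. 45 of the 54 varied by at least 0.01 over the 18 arrays. The other 9 (Mylk2, Tnnc1, Tnni1, Tnnt1, Myl2, Myl3, Myh7, Casq2 and Trim54) were constant in the deposited table and give no information. The whole table holds 18193 genes with a symbol of their own, of which 6842 varied.

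RNA was taken from dorsal skin. The mice were HR-1 males (HOS: HR-1), which are albino and hairless, aged 6 weeks per the labels, with 6 arrays in each of 3 groups. The NT mice had intact, unstripped skin. In the TS mice the left dorsal skin was stripped with cellophane tape in 3 sessions per week for 4 weeks, each session ending when water loss through the skin reached 70 to 100 g/m2/h. The WB mice had the same stripping together with oral winged bean extract, 200 mg per kg per day in 0.3% carboxymethylcellulose, on 5 days per week for 5 weeks, beginning 1 week before the stripping. The labels do not say whether NT and TS mice received the vehicle. All groups share the hairless strain, so hair-bearing skin is not represented.

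Skeletal muscle fibres differ in speed and fuel. Fast fibres use their own isoforms of myosin, troponin and calcium pump and rely on stored glycogen. Slow fibres use slow isoforms, some of them shared with heart, and rely on mitochondria and myoglobin. Mouse skin carries a thin sheet of striated muscle, the panniculus carnosus, under its fat layer, and RNA of full-thickness skin commonly contains its transcripts.

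Values are read as log2 signals, and a level is compared only within 1 probe set. The WB arrays stand apart from the rest. The 3′ minus 5′ difference of the beta-actin control probe sets was -0.51 ± 0.10 (SD, n = 6) in NT, 0.16 ± 0.07 in TS and 5.69 ± 0.25 in WB. Each pair of groups differed (exact permutation test, two-sided, p = 0.00216, the smallest that 6 against 6 arrays can give, and 0.0026 after Benjamini-Hochberg adjustment over 6 tests). The same difference of Gapdh was -0.59 ± 0.11 in NT, -0.44 ± 0.11 in TS and 3.70 ± 0.36 in WB, and NT and TS differed by 0.15 (exact permutation p = 0.0476, adjusted 0.0476). That Gapdh difference no longer passes in 9 of the 12 tests that leave out 1 array, with an exact permutation p of up to 0.108. Over varying probe sets, arrays correlated at 0.957 to 0.986 within TS and at 0.585 to 0.685 between TS and WB, as a description. The part of these control differences in the results below was not tested, and every comparison with WB carries it. On NT 5 the liver gene Alb read 19.04 against 6.60 to 6.96 on the other NT arrays.

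In tape-stripped skin the muscle genes were mostly lower than in unstripped skin. Of the 54 genes on the array, 34 fell and 3 rose in TS against NT, while 7.93% of all 18193 genes fell and 7.27% rose (limma, adjusted p under 0.05 and a difference of at least 0.01). Among genes that varied, 21.1% fell and 19.3% rose. The median difference of the 45 varying muscle genes was -1.45, against 0.00 over all varying genes, and single genes ranged from -4.69 to 2.66. For 28 of the 45, every TS array lay below every NT array, which held for 13.7% of varying genes. Fitted on the 12 arrays of NT and TS alone, without the WB arrays, 35 of the 54 were called; in the fit on 18 arrays 37 were, against 15.2% of all genes in either direction. In whole skin, fewer muscle cells and less muscle RNA per cell cannot be told apart.

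The 3 classes of fibre genes were represented unequally. Of the 19 genes of fast fibres, 18 varied, 16 fell and none rose, with a median of -2.03. Of the 12 genes of slow fibres, 7 were constant, and of the 5 that varied Ckmt2 fell and Atp2a2 rose, with a median of -0.45. Of the 23 genes classed as neither fast nor slow, and counted here with both fibre types, 17 fell and 2 rose. Their median was -0.97 over the 22 that varied. This class also holds the perinatal heavy chain Myh8 and the ubiquitin ligases. The fast median thus lay 1.58 below the slow median, which is a description, since the constant genes leave the slow side nearly unread. Among the fast genes plotted by array, Myh2 was higher on every NT array than on any TS array, while Myh1 and Myh4 overlapped.

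**Figure D1:**
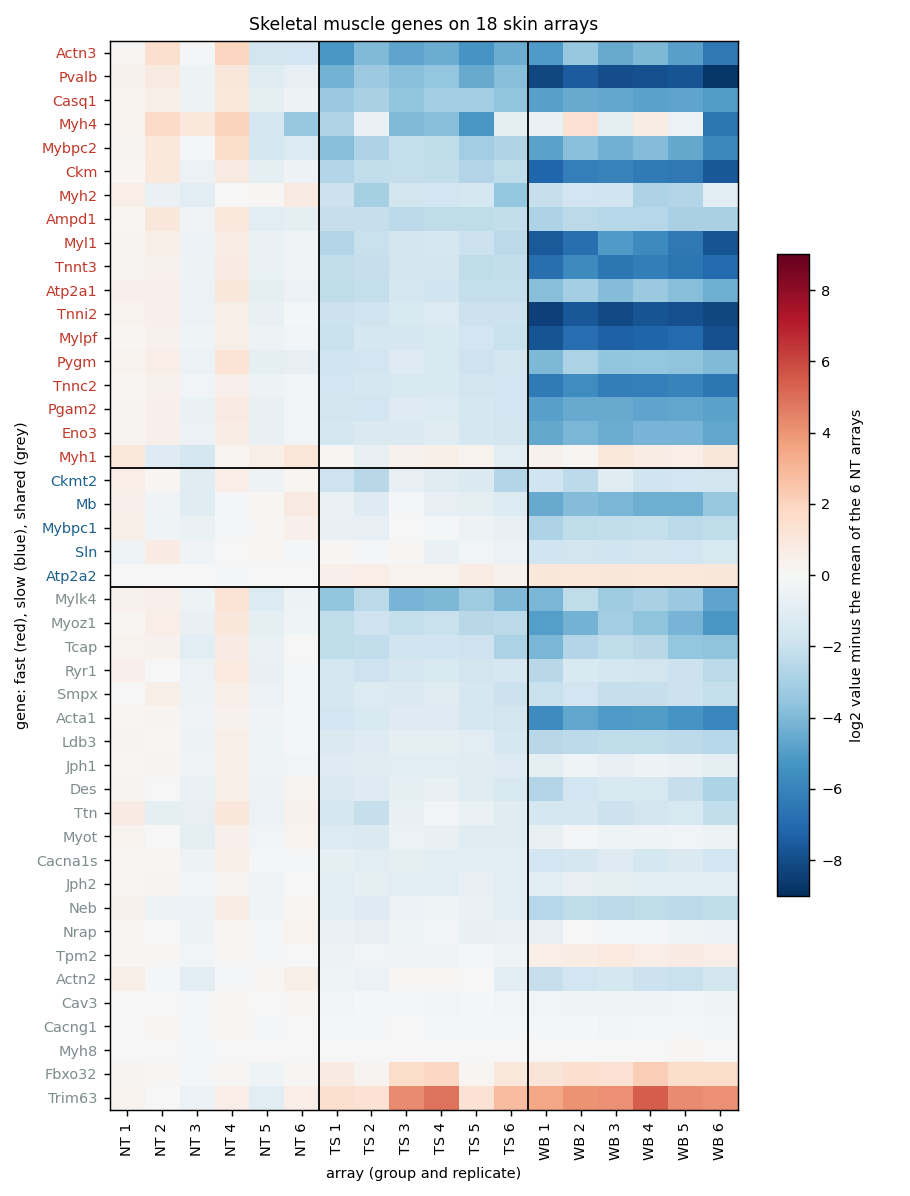
Log2 signal of the 45 varying muscle genes (rows, ordered by fibre class) on the 18 arrays (columns, by group), as the difference from the mean of the 6 NT arrays. Most rows turn lower in TS (median -1.45) and again in WB, and Trim63, Fbxo32 and Atp2a2 turn higher.

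Among fast myofilament genes, the Z-disc crosslinker Actn3 had the largest fall. Actn3 (alpha-actinin 3, found in fast fibres) had a lowest, median and highest signal of 10.35, 12.05 and 13.99 in NT and of 6.77, 7.41 and 8.10 in TS. No TS array reached the lowest NT array, and the difference was -4.69 (SE 0.63, adjusted p = 0.000124), or 25.8-fold. Mybpc2, the fast form of myosin-binding protein C, had 9.91, 11.52 and 13.14 in NT and 7.59, 8.72 and 9.34 in TS. The groups did not overlap, and the difference was -2.82 (SE 0.52, adjusted p = 0.00143). Mylk4, a kinase of the myosin light chain kinase family, had 8.86, 10.10 and 11.37 in NT and 5.96, 6.37 and 7.70 in TS, without overlap, and fell by 3.54 (SE 0.47, adjusted p = 0.000109). Its TS mean lies under the array median of 6.94, and with no measure of background in the table its fold is not given.

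The fast troponin complex and the fast light chains fell by less, and by similar amounts. The calcium-binding subunit Tnnc2 had 13.81, 14.23 and 14.74 in NT and 12.55, 12.64 and 12.92 in TS, a difference of -1.59 (SE 0.17, adjusted p = 1.75e-05). The inhibitory subunit Tnni2 had 13.34, 14.09 and 14.57 in NT and 12.06, 12.15 and 12.76 in TS, a difference of -1.71 (SE 0.22, adjusted p = 9.61e-05). The tropomyosin-binding subunit Tnnt3 had 12.86, 13.43 and 14.20 in NT and 11.20, 11.29 and 11.82 in TS, a difference of -2.03 (SE 0.25, adjusted p = 5.5e-05). All 3 subunits were lower on each TS array than on any NT array. The regulatory light chain Mylpf had 13.52, 13.91 and 14.52 in NT and 11.94, 12.35 and 12.59 in TS and fell by 1.69 (SE 0.22, adjusted p = 8.94e-05). The essential light chain Myl1 had 12.81, 13.41 and 14.09 in NT and 10.78, 11.47 and 11.89 in TS and fell by 2.04 (SE 0.41, adjusted p = 0.00279). Both light chains were again without overlap. Acta1, the skeletal actin of all fibres, had 14.40, 14.76 and 15.09 in NT and 13.01, 13.25 and 13.56 in TS, did not overlap, and fell 2.72-fold (-1.45, SE 0.19, adjusted p = 0.000101).

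The fast myosin heavy chains, the motors themselves, did not move as one. Myh2 (type 2A), Myh1 (type 2X) and Myh4 (type 2B) are neighbouring genes of near-identical sequence, and the probe set of Myh1 is of the kind whose probes can match related transcripts, so signal may be shared among them. The 250 bases before the start of each gene (RefSeq, GRCm38.p6, plus strand) are shown because the 3 neighbours gave different results. Capitals mark the MEF2 consensus, the CArG box (the serum response factor motif), the forkhead motif GTAAACA (both strands) and the TATA box TATAAA (gene's strand).
Myh2, chr11:67170777-67171026: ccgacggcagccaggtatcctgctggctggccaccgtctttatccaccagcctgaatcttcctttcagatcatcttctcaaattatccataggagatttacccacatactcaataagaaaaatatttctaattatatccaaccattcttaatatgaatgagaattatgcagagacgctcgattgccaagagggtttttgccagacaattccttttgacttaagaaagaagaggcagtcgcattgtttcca
Myh1, chr11:67199852-67200101: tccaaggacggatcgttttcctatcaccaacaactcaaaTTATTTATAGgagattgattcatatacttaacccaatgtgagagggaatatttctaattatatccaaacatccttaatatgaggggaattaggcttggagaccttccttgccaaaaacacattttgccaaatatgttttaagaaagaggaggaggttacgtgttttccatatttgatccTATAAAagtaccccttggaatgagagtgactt
Myh4, chr11:67237562-67237811: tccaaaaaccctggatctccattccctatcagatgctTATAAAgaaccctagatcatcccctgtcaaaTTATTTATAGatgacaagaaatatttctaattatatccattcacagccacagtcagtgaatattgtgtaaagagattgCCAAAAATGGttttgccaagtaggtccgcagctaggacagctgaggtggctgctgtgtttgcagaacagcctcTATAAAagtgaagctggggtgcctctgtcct

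Myh1 and Myh4 each hold 1 MEF2 consensus, beginning 211 and 182 bases before the start, and a TATA box 32 and 31 bases before it. Myh4 also holds a CArG box 104 bases and another TATA box 213 bases before the start. Myh2 holds none of these letters in this window. Of 41 muscle genes with a promoter entry, 9 (22.0%) hold a MEF2 consensus, against 3.42% of 27025 genes. A CArG box stands in 4 (9.76%, against 1.62%), a TATA box in 5 (12.2%, against 8.94%) and an E-box, CANNTG, the motif of the MyoD family, on either strand in 36 (87.8%, against 69.3%). A match is a description of letters and not a site.

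Of these motors, Myh2 fell. It had 10.30, 11.32 and 12.03 in NT and 7.76, 9.41 and 9.66 in TS, with no overlap, and the difference was -2.23 (SE 0.41, adjusted p = 0.00133), or 4.70-fold. Myh1 had 10.66, 12.64 and 13.32 in NT and 11.28, 12.49 and 12.82 in TS; these overlap throughout, and the difference of -0.04 (SE 0.44, adjusted p = 1) was not called. Myh4 had 8.89, 12.92 and 14.29 in NT and 7.05, 9.05 and 11.74 in TS. Its NT and TS arrays overlap, and the difference of -2.85 (SE 1.32, adjusted p = 0.193) was within that spread. Myh8, the perinatal heavy chain, differed by -0.01 and was not called.

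Myh4 varied more within a group than any other of the 45 genes, over 5.40 in NT, 4.69 in TS and 7.92 in WB. It was lowest among NT arrays on NT 6 (8.89), where Myh2 (12.03) and Myh1 (13.32) were highest. In TS it was highest on TS 2 (11.74) and TS 6 (11.51), the arrays with the lowest Myh2 (8.23 and 7.76) and the lowest Myh1 (11.63 and 11.28). In WB it was lowest on WB 6 (5.72), where Myh2 (10.24) and Myh1 (13.32) were highest. These arrays were picked out after their values were seen, and the opposite placing was not tested.

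**Figure D2:**
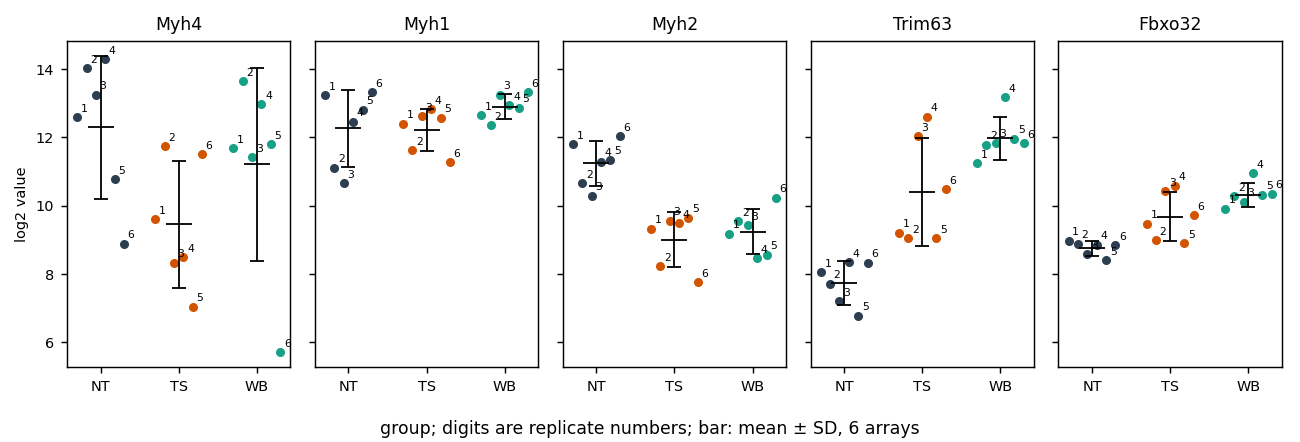
Log2 signal (vertical axis, shared by all panels) of Myh4, Myh1, Myh2, Trim63 and Fbxo32 on each array. Points are single arrays of NT, TS and WB, and bars are group means with SD. Myh4 spreads from 8.89 to 14.29 within NT alone, while all TS arrays of Trim63 lie above 8.35, the highest NT array.

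On the slow side, Tnnc1, Tnni1, Tnnt1, Myl2, Myl3 and Myh7, which make up the slow troponin complex, light chains and heavy chain, were constant at levels between 6.68 and 7.17, near the array median of 6.94. Whether slow myofilaments changed therefore cannot be read here. The slow myosin-binding protein Mybpc1 varied, with 10.11, 10.68 and 11.21 in NT and 9.94, 10.15 and 10.64 in TS. These groups overlap, and the difference of -0.45 (SE 0.20, adjusted p = 0.159) was not called. With its other probe sets it was: the mean of all varying ones gives an adjusted p of 0.0076, and the dimmest alone gives 0.0027. Tpm2, beta-tropomyosin, which is counted with the genes of both fibre types and is also made by smooth muscle, had 11.20, 11.49 and 11.60 in NT and 11.01, 11.14 and 11.37 in TS. With some overlap it fell by 0.30 (SE 0.07, adjusted p = 0.0117). Actn2, the alpha-actinin of all fibres and likewise counted with both types, had 8.65, 9.64 and 10.19 in NT and 8.60, 9.41 and 9.77 in TS, and its -0.29 (SE 0.25, adjusted p = 0.586) was not called.

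Of 10 pairs of a fast gene and a counterpart, 3 varied on both sides. The counterpart is a slow gene, except Actn2, which is counted with both fibre types. Within an array, the difference of Mybpc2 from Mybpc1 ran from -0.90 to 2.53 in NT, with a median of 0.86, and from -2.44 to -1.21 in TS, a shift of -2.36 (SE 0.63). The difference of Atp2a1 from Atp2a2 ran from 0.23 to 2.19 in NT and from -1.72 to -0.81 in TS, a shift of -2.49 (SE 0.36). The difference of Actn3 from Actn2 ran from 0.16 to 4.46 in NT and from -2.81 to -0.99 in TS, a shift of -4.40 (SE 0.80). In all 3 pairs the NT and TS arrays do not overlap, and the fast gene fell relative to its partner. Atp2a2 itself rose on the probe set used (0.47), so its rise is part of that shift. Its other varying probe sets differed by -0.02, 0.03 and 0.20. The other probe sets of Mybpc1 had larger differences (-0.73 and -0.58) than the one used (-0.45). The levels of the paired probe sets are not compared, only the shift between groups. The other 7 pairs have a constant slow gene.

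**Figure D3:**
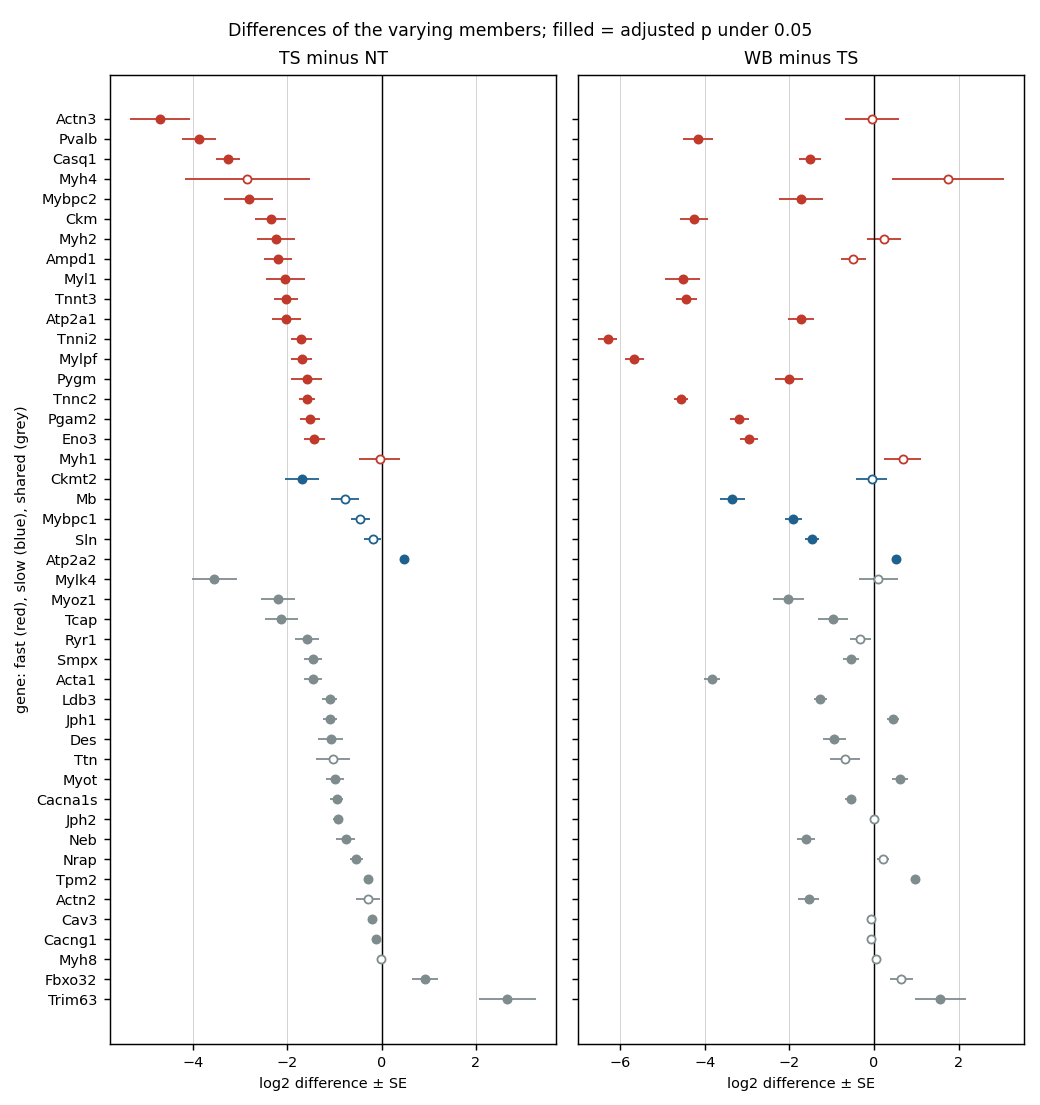
Difference in log2 signal, TS minus NT and WB minus TS (horizontal axis), for each of the 45 varying muscle genes by fibre class, with bars of 1 standard error. All 18 varying fast genes lie at or left of 0 in TS minus NT, Myh1 at -0.04, and Trim63 lies farthest right at 2.66.

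Of 11 calcium handling genes on the array, 8 fell, Atp2a2 rose, Sln was not called and Casq2 was constant. Pvalb, the parvalbumin that buffers calcium in fast fibres, had 12.68, 13.69 and 14.79 in NT and 9.18, 9.93 and 10.46 in TS. The lowest NT array stayed far above the highest TS array, and the difference was -3.86 (SE 0.36, adjusted p = 5.69e-06), or 14.6-fold. Casq1, the fast calsequestrin that stores calcium in the sarcoplasmic reticulum, had 10.30, 11.02 and 12.08 in NT and 7.57, 7.87 and 8.17 in TS. It too was without overlap and fell 9.55-fold (-3.26, SE 0.25, adjusted p = 1.18e-06). Atp2a1, the fast calcium pump SERCA1, had 11.27, 12.05 and 13.11 in NT and 9.80, 9.99 and 10.53 in TS, without overlap, and fell 4.05-fold (-2.02, SE 0.30, adjusted p = 0.000269).

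Atp2a2, the SERCA2 pump of slow fibres, also present in keratinocytes, went the other way. It had 10.92, 11.03 and 11.08 in NT and 11.34, 11.45 and 11.71 in TS. Every TS array was above every NT array, and it rose by 0.47 (SE 0.05, adjusted p = 2.74e-05), or 1.38-fold. The rise rests on the brightest probe set: the other varying ones differed by -0.02, 0.03 and 0.20, and the mean of all its varying probe sets was not called (adjusted p = 0.101). Sln, sarcolipin, an inhibitor of the pumps, had 7.80, 8.09 and 8.93 in NT and 7.61, 8.02 and 8.31 in TS, overlapping, and its -0.19 (SE 0.17, adjusted p = 0.617) was not called.

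The parts of the triad, where the surface membrane meets the calcium store, fell by smaller amounts. Ryr1, the calcium release channel, fell by 1.58 (SE 0.25). Cacna1s, its voltage sensor, fell by 0.95 (SE 0.14). Jph1 and Jph2, the junctophilins that hold the membranes together, fell by 1.09 (SE 0.14) and 0.93 (SE 0.10). In these 4 no TS array reached an NT array. Cacng1, a calcium channel subunit, fell by 0.12 (SE 0.03, adjusted p = 0.0216), with overlap, and the call is lost without NT 2 (adjusted p = 0.0544) or NT 4 (0.0541).

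Of the 7 genes of fuel and oxygen use, 6 fell, with a median of -1.59. Ckm, the creatine kinase that recharges ATP at the myofilament, had 13.10, 13.80 and 14.89 in NT and 11.33, 11.71 and 11.81 in TS. The groups did not overlap, and Ckm fell 5.10-fold (-2.35, SE 0.33, adjusted p = 0.000187). Ampd1, the muscle AMP deaminase, had 7.84, 8.73 and 9.81 in NT and 6.46, 6.59 and 6.75 in TS, without overlap, and fell by 2.20 (SE 0.29, adjusted p = 0.000113), with a TS mean under the array median. The glycolytic and glycogen enzymes Eno3 (-1.42, SE 0.21), Pgam2 (-1.52, SE 0.22) and Pygm (-1.59, SE 0.32) fell, each without overlap.

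The slow-fibre genes of this role gave different results. Ckmt2, the mitochondrial creatine kinase, had 9.12, 10.37 and 10.77 in NT and 7.56, 8.62 and 9.47 in TS. The ranges overlap slightly, and it fell by 1.69 (SE 0.36, adjusted p = 0.00421). Mb, the oxygen store myoglobin, had 10.96, 12.08 and 12.84 in NT and 10.78, 11.26 and 11.91 in TS. With that overlap its -0.78 (SE 0.29, adjusted p = 0.0919) was not called; without NT 3 it was (adjusted p = 0.0182).

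Of the 10 scaffold genes on the array, 9 fell, with a median of -1.06. Myoz1, a Z-disc protein that binds calcineurin, had 10.62, 11.32 and 12.48 in NT and 8.95, 9.23 and 9.57 in TS. Without overlap, it fell 4.59-fold (-2.20, SE 0.37). Tcap, the titin cap, had 10.80, 11.91 and 12.49 in NT and 8.89, 9.69 and 9.96 in TS, without overlap, and fell 4.37-fold (-2.13, SE 0.35, adjusted p = 0.000553). The Z-disc proteins Ldb3 (-1.10, SE 0.16) and Myot (-0.99, SE 0.19), the intermediate filament Des (-1.08, SE 0.27), which smooth muscle also makes, and the small muscle protein Smpx (-1.45, SE 0.19) fell by about 1 unit or more. Neb, the thin filament ruler nebulin (-0.76, SE 0.20), Nrap (-0.54, SE 0.14) and the muscle caveolin Cav3 (-0.21, SE 0.04) fell by less. Neb misses the threshold on the 12 arrays of NT and TS alone (adjusted p = 0.0602). Ttn, the giant spring titin, had -1.03 (SE 0.36, adjusted p = 0.0698) and was not called. It passes without NT 2 (0.0425), NT 3 (0.0451) or TS 4 (0.0399), as the mean of its varying probe sets (0.0191) and among varying probe sets alone (0.0215), and 2 of its other probe sets fell (-1.24 and -1.08).

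Of the 3 muscle ubiquitin ligases on the array, Trim63 and Fbxo32 were higher in stripped skin, and Trim54 was constant and gives no information. Trim63 (MuRF1) and Fbxo32 (atrogin-1) mark myofilament and other muscle proteins for breakdown, are induced in muscle wasting, and are transcribed under forkhead factors of the FoxO class. The promoter of Trim63 is shown because it was the only one of the 41 muscle promoters to hold the forkhead motif GTAAACA (2.44%, against 3.54% of all 27025 genes); the motif begins 194 bases before the start, on the opposite strand, and a TATA box stands 31 bases before it.
Trim63, chr4:134314870-134315119: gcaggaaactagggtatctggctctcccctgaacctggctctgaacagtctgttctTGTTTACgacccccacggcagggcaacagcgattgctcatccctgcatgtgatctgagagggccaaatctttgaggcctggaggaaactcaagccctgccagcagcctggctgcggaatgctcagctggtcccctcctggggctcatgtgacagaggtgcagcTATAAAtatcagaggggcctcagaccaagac

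Trim63 had 6.78, 7.89 and 8.35 in NT and 9.05, 9.85 and 12.61 in TS. Every TS array lay above every NT array, and Trim63 rose 6.33-fold (2.66, SE 0.61, adjusted p = 0.00641). The TS arrays were unequal: TS 3 (12.03) and TS 4 (12.61) lay well above the other four, which ran from 9.05 to 10.49. Fbxo32 had 8.40, 8.86 and 8.98 in NT and 8.91, 9.60 and 10.59 in TS. The groups overlap slightly, TS 4 (10.59) and TS 3 (10.42) were again the highest, and Fbxo32 rose by 0.92 (SE 0.27, adjusted p = 0.0289). The call of Fbxo32 is lost on the 12 arrays of NT and TS (adjusted p = 0.0656), and without NT 3 (0.0592), NT 5 (0.0652), TS 3 (0.0670), TS 4 (0.0569) or TS 6 (0.0514). Among the remaining Fbxo32 probe sets, one rose (1.07) and one was not called (0.33, adjusted p = 0.424).

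Within NT, most muscle genes were high and low on the same arrays. Of the 18 varying fast genes, 14 had their highest NT value on NT 4 and 14 their lowest on NT 5, the array that also carried the liver signal. Of the 22 varying genes counted with both fibre types, 16 were highest on NT 4, while 13 were lowest on NT 3 and 8 on NT 5. Without NT 5, 34 genes fell and 2 rose in TS.

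Muscle genes outside the 55 moved in the same direction. Of 88 on the array, 57 varied, 41 fell and none rose, with a median of -0.79 over those that varied. The shares over all genes were 7.93% lower and 7.27% higher, and among varying genes 21.1% and 19.3%. Sarcomere genes fell in 11 of 19, among them the Z-disc protein Pdlim3 (-2.15, SE 0.18) and alpha-tropomyosin Tpm1 (-2.14, SE 0.20). Triad genes fell in 6 of 11, with triadin, Trdn (-1.82, SE 0.22), and the calcium channel subunit Cacna2d1 (-0.92, SE 0.12). Energy genes fell in 10 of 16, with the glycerol phosphate enzyme Gpd1 (-1.52, SE 0.18) and the cytochrome oxidase subunit Cox8b (-1.53, SE 0.20). Of 14 other muscle-restricted genes 9 fell, with the small heat shock proteins Cryab (-1.91, SE 0.23) and Hspb6 (-1.23, SE 0.17). Of 8 genes of the dystrophin complex and costamere 3 fell, with the protease Capn3 (-0.73, SE 0.08) and sarcospan, Sspn (-0.87, SE 0.16). Of 11 myogenic regulators only 4 varied, and the transcription factors Mef2c (-1.32, SE 0.10) and Myf6 (-0.57, SE 0.13) fell. Of 9 genes of the neuromuscular junction and membrane excitation only the potassium channel Kcna7 varied, and it was not called (-0.10).

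Markers of fat and epidermis moved with the groups. In TS against NT, 7.93% of all genes were lower and 7.27% higher, and among varying genes 21.1% and 19.3%. Of 8 adipocyte markers, 7 fell in TS (median -1.13), and their mean signal ran from 10.85 to 11.47 over NT arrays and from 9.50 to 10.15 over TS arrays. Of 8 keratinocyte markers, 6 rose (median 0.66), with mean signals of 10.95 to 11.38 in NT and 11.63 to 12.14 in TS. Of 7 fibroblast and matrix markers 1 rose and none fell, and their mean signals overlapped (12.66 to 12.84 in NT, 12.64 to 12.81 in TS). Of 9 smooth muscle markers 6 varied, 2 fell and none rose (median -0.28 over those that varied). Of 7 cardiac markers 6 were constant, and the 1 that varied fell (-0.29). Of 8 endothelial markers 2 rose, and of 5 nerve and Schwann cell markers 1 fell. The part of these markers in the fall of the muscle genes was not tested.

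In mice that received the extract, most fast myofilament transcripts were lower still, on arrays whose control differences also moved. Of the 54 genes, 25 were lower and 5 higher in WB than in TS, while 14.8% of all genes were lower and 18.2% higher, or 33.0% in all, and among varying genes 39.2% and 48.4%. After quantile normalization 25 were lower and 18 higher, and after centring each array on its median 25 and 16. In both, all 9 constant genes were called, since shifting whole arrays moves them. The median was -0.94 over the varying muscle genes against 0.16 over all varying genes, and it was -2.48 for fast and -1.47 for slow genes. The pairs of a fast gene and its counterpart did not all move that way. The difference of Atp2a1 from Atp2a2 shifted by -2.25 (SE 0.25) without overlap. That shift rests on the brightest Atp2a2 probe set, and its other varying probe sets disagreed (-0.72, -1.55 and 0.55 in WB minus TS). The difference of Mybpc2 from Mybpc1 shifted by 0.18 (SE 0.35) with overlap. The difference of Actn3 from Actn2 had a median of -2.31 in TS and a higher one, -0.48, in WB, with overlap.

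Most adipocyte, keratinocyte and fibroblast markers were also lower in WB than in TS. The shares over all genes were 14.8% lower and 18.2% higher, and among varying genes 39.2% and 48.4%. Of 8 adipocyte markers 5 were lower and 2 higher, with mean signals of 9.50 to 10.15 in TS and 8.39 to 8.81 in WB. Of 8 keratinocyte markers 5 were lower and 1 higher (median -0.74), with 11.63 to 12.14 in TS and 10.39 to 11.23 in WB. Of 7 fibroblast and matrix markers 4 were lower and 1 higher (median -0.80), with 12.64 to 12.81 in TS and 11.87 to 11.97 in WB. Of 9 smooth muscle markers 4 were lower and 1 higher, of 8 endothelial markers 3 and 1, and of 5 nerve and Schwann cell markers 1 and 1. None of the 7 cardiac and 9 liver markers was called. Lower mean signal in WB was thus measured for the adipocyte, keratinocyte and fibroblast lists too. The part of these markers in the muscle results was not tested.

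The fast troponins and light chains had the largest differences here. Tnni2 had 5.62, 6.02 and 6.37 in WB, 6.29 below TS (SE 0.22, adjusted p = 9.93e-13). Mylpf had 6.03, 6.69 and 7.10, a difference of -5.66, and Tnnc2 had 7.78, 8.09 and 8.67, a difference of -4.56 (SE 0.17, adjusted p = 1.6e-12). Each lay far under every TS array. By any margin, every WB array lay below every TS array in 34.7% of all varying genes. Myl1 (-4.52), Tnnt3 (-4.44), Ckm (-4.26), Pvalb (-4.16) and Acta1 (-3.84) followed, all without overlap. The WB means of Tnni2, Mylpf, Myl1 and Pvalb lie under the array median of 6.94. So do those of Casq1, Mybpc2 and Sln below. With no measure of background in the table, the size of these differences is uncertain.

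Of the genes with the largest falls in TS, Pvalb, Casq1 (-1.51) and Mybpc2 (-1.73) were lower again in WB, while Actn3 and Mylk4 were not called. Actn3 had 5.59, 7.34 and 8.65 in WB and 6.77, 7.41 and 8.10 in TS, overlapping, with a difference of -0.04 (SE 0.63, adjusted p = 1). Mylk4 had a difference of 0.10 (adjusted p = 1). Of the heavy chains, Myh2 (8.46, 9.31 and 10.24 in WB; 0.23, SE 0.41, adjusted p = 0.771) and Myh1 (12.36, 12.91 and 13.32; 0.68, SE 0.44, adjusted p = 0.254) were not called; Myh1 passes after quantile normalization (1.00, adjusted p = 0.0297). Myh4 had 5.72, 11.75 and 13.64 in WB and was 1.75 above TS (SE 1.32, adjusted p = 0.335). Without WB 6 it was 2.85 above TS (SE 1.06, limma adjusted p = 0.0398). Its dimmer probe set went the other way, at -0.39 against TS (limma adjusted p = 0.588). In WB against NT that probe set was lower (-1.42, limma adjusted p = 0.0194).

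The slow-fibre genes that vary were mostly lower in WB. Mb had 7.46, 7.76 and 8.64, lower than TS by a difference of -3.35, Mybpc1 had 7.88, 8.42 and 8.51 (-1.91, SE 0.20), and Sln had 6.40, 6.51 and 6.74 (-1.47). In all 3 no WB array reached a TS array. Ckmt2 had 7.84, 8.43 and 9.10 (-0.05, adjusted p = 1).

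Higher in WB than in TS were Tpm2, Atp2a2, Jph1, Myot and Trim63. Trim63 had 11.25, 11.84 and 13.17 in WB and 9.05, 9.85 and 12.61 in TS, overlapping, a difference of 1.57 (SE 0.61, adjusted p = 0.0446). That call is lost on the 12 arrays of TS and WB alone (adjusted p = 0.0971), with array weights (0.132), and without any one of 14 of the 18 arrays, with adjusted p up to 0.106. Fbxo32 had 9.92, 10.30 and 10.96 in WB, and its 0.64 (adjusted p = 0.0676) was not called; without TS 3 (0.0245) or TS 4 (0.0128) it passes. Jph1 differed by 0.45 (SE 0.14, adjusted p = 0.0172) and Myot by 0.61 (SE 0.19, adjusted p = 0.0171), which misses the threshold with array weights (adjusted p = 0.0916).

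Probe sets of one gene disagreed in comparisons with WB. Of the 10 genes with several varying probe sets, none had calls in both directions in TS against NT, and 4 did in WB against TS. Tnni2, at -6.29 on its brightest probe set, had 0.47 and -0.17 on the others. Tpm2 had 0.97, 0.55, -2.86 and -0.996. Atp2a2 had 0.52, -0.72, -1.55 and 0.55. Fbxo32 had 0.64, 1.48 and -2.37. The size and, for these genes, the direction in WB depends on the probe set, and where each probe set lies along its transcript was not analysed here.

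**Figure D4:**
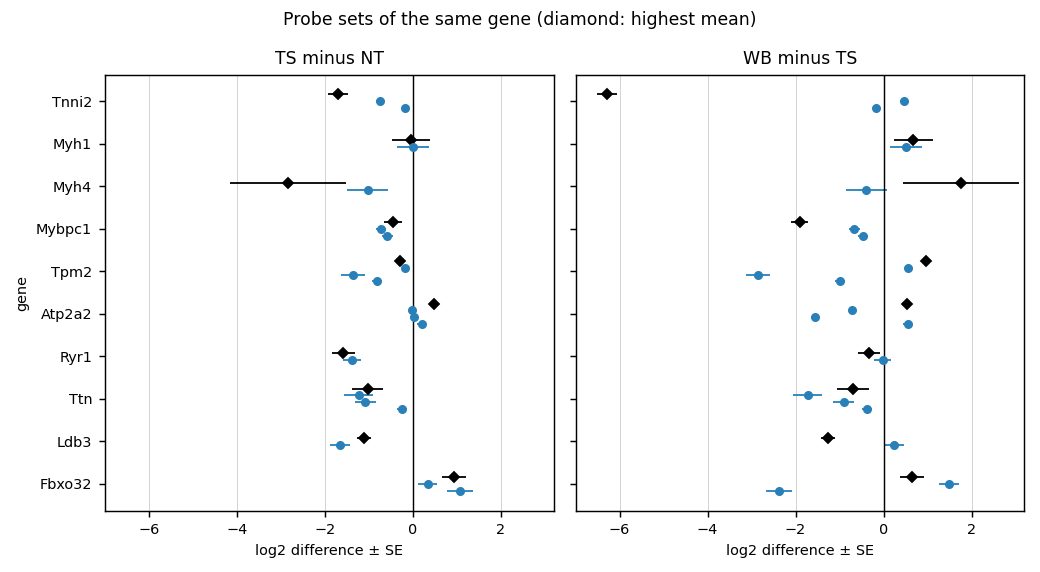
Difference in log2 signal (horizontal axis) of each varying probe set of the 10 muscle genes with several (vertical axis), TS minus NT and WB minus TS. Each point is 1 probe set. In WB minus TS the probe sets of Tpm2 run from -2.86 to 0.97, while in TS minus NT they run from -1.36 to -0.19.

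Against unstripped skin, WB had 36 of the 54 genes lower and 4 higher, with 15.5% of all genes lower, 17.6% higher and 33.2% called in all; after quantile normalization 36 were lower and 15 higher, and after centring 37 and 14. The varying muscle genes had a median of -2.36, against 0.07 over all varying genes, and ranged from -8.02 (Pvalb) to 4.23 (Trim63). The WB mean of Pvalb lies under the array median, so the size of its difference is uncertain. Trim63 and Fbxo32 were higher in WB than in NT, without overlap, by 4.23 (adjusted p = 2e-05) and 1.56 (adjusted p = 0.000137), although the dimmest probe set of Fbxo32 was lower (-1.30). This comparison shares its arrays with the other 2 and is no independent support for them.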

How the data were processed

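Per the labels' protocols, biotinylated cRNA made from 100 ng of skin RNA per sample was read on Affymetrix whole-genome mouse arrays, 18 in all. The authors deposited 1 value per probe set and array, read here as log2 from its range of 2.93 to 19.04; for base, summarising and normalization the sources used here give nothing. Of 45037 probe sets tested (64 controls left out), 33091 ranged by less than 0.01 over all arrays, for a reason that no source used here gives. Signal over background is unknown, and 6 arrays per group limit the precision. The labels call the arrays of a group biological replicates.

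Symbols came from GEO's platform annotation; 34945 probe sets had 1 symbol, 932 several and 9160 none. limma 3.58.1 (R 4.3.3; lmFit, eBayes, two-sided) was fitted on all 18 arrays without covariates, with Benjamini-Hochberg adjustment over 45037 probe sets per comparison, and tested on simulated data. A gene is called at an adjusted p under 0.05 and a difference of at least 0.01; fell, rose, lower and higher follow this rule, and SE is limma's. Named with values by array were the genes of the pairs, the 2 with the largest TS minus NT difference of each role and, of other muscle lists, the 2 with the smallest p. The genes, fibre classes and lists were chosen with earlier results of these data known, so lists have counts and medians only. Promoter sequences are RefSeq's, build GRCm38.p6. Alternatives were 2 normalizations, 2 filters, other samples, weights, prior, replicate block, probe sets, a 1.5-fold threshold and leaving out each array.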

Additional observations from a re-analysis of the deposited data

Results flagged for a closer look

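In 4 of 135 combinations of a varying muscle gene and a group, 1 array lay far from the other 5 of its group; chance alone marks about 1 in 20 such groups. Myh4, the type 2B heavy chain, was lowest on WB 6 at 5.72, with the next WB array at 11.42 and the highest at 13.64. Trim63 was highest on WB 4 at 13.17, with the next at 11.97. Mybpc1 was lowest on WB 1 at 7.88, with the next at 8.28. Cacng1 was highest on TS 3 at 7.32, with the next at 7.24.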

How the results depend on the processing

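The counts of muscle genes called in either direction stayed within 1.5 times of their values under 29 settings. The counts of higher genes alone did not. In WB minus TS they went from 5 to 18 with quantile normalization and 16 with median centring. In WB minus NT they went from 4 to 15 and 14. With these normalizations the 9 constant genes were among them. The fast minus slow medians stayed within the replicate spread under the 23 settings run for them. Leaving out 1 array gave 36 to 38 calls in TS minus NT, 28 to 30 in WB minus TS and 40 to 42 in WB minus NT, and fast minus slow medians of -1.74 to -1.41, -1.12 to -0.89 and -3.12 to -2.78. For the array controls, leaving out 1 array was added after seeing the data; beta-actin differed by 0.63 to 0.69, 5.48 to 5.61 and 6.14 to 6.28, and Gapdh by 0.11 to 0.18 (exact permutation p up to 0.108), 4.00 to 4.19 and 4.14 to 4.33.

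For single genes in TS minus NT, 1653 of 1680 values kept direction and side of the threshold, 18 no longer passed, 9 newly passed and none changed direction. In WB minus TS 40 no longer passed, 20 newly passed and 7 changed direction, and in WB minus NT 4, 9 and 4. The changes of direction came with the choice of probe set. In WB minus TS the mean of varying probe sets gave -0.58 for Tpm2, -0.30 for Atp2a2 and -1.49 for Cryab; the dimmest gave -0.996 for Tpm2, 0.23 for Ldb3, -2.37 for Fbxo32 and -3.17 for Cryab. In WB minus NT the mean gave -1.25 for Tpm2 and -0.13 for Atp2a2, and the dimmest -1.81 for Tpm2 and -1.30 for Fbxo32. The cause was not tested.

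With the replicate block 37, 30 and 40 genes were called, as without it. The numbers do not pair the arrays: deviations of same-numbered arrays correlated at -0.13 to 0.13 (TS, NT), -0.27 to 0.05 (WB, TS) and -0.05 to 0.14 (WB, NT).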
